A study of Mus musculus with 18 samples.

Results

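The mouse has many collagen genes beyond those of hyaline cartilage. Of the 46983 genes in the deposited expression table, 37 carry a symbol of the form Col, a number, a, a number, and lie outside the cartilage set of Col2a1, Col9a1, Col9a2, Col9a3, Col11a1, Col11a2 and Col27a1. These 37 genes were chosen by symbol alone and not by any measured value. RNA sequencing covered 6 groups with 3 libraries in each, 18 in all. The lipochondrocytes, the lipid-storing chondrocytes of the ear, came from the ear cartilage plate of mice at postnatal days 8, 10, 13, 21 and 33 (P8 to P33). The adipocytes came from inguinal fat at P33. All groups, adipocytes included, are labelled Wnt1-Cre2;TdTomato on a C57BL/6 background, so there was no group without the Cre driver and the reporter. Wnt1-Cre2 is a driver of the neural crest lineage, and TdTomato is a red fluorescent reporter. At P8, P10 and P13 cells were sorted for high TdTomato, whereas at P21 and P33, and for adipocytes, the buoyant cells were taken after centrifugation. Between P13 and P21, age and isolation therefore changed together and cannot be told apart. The labels do not say whether the 3 libraries of a group came from separate animals, so p-values measure the spread between these libraries, which may be technical.

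Collagens are extracellular proteins whose chains wind around each other into a helix. The fibrillar types I, III and V build the cables of skin, tendon and bone, and in the ear they are known from the perichondrium around the plate. Type VI forms beaded filaments close to the cell surface, types VIII and X form hexagonal networks, and type IV is the scaffold of basement membranes. Fibril-associated types XII, XIV and XVI sit on the surface of fibrils, and multiplexins XV and XVIII lie beside basement membranes. Type X is the classical product of hypertrophic chondrocytes, and each mature adipocyte is wrapped in a type IV basement membrane.

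Promoter sequences are shown for 4 genes whose levels set the main patterns below: both genes of type VIII, since Col8a1 had the largest difference from adipocytes of the tested collagens, and Col1a2 and Col3a1, fibrillar genes that both fell from P10 to P13, of which Col1a2 rose from P13 to P21 and Col3a1 fell from P21 to P33. Each run holds the 250 bases before the RefSeq start site (GRCm38.p6), read 5′ to 3′ on the strand of the gene. Capitals mark matches, on either strand, to the CCAAT box, to TATAAA of the TATA box, to GGGCGG of the GC box, and to the motif AACAAT, a core sequence that SOX-family factors recognise. Matches that overlap run together in capitals. The windows are chr16:57754738-57754987 on the minus strand for Col8a1, chr4:126286544-126286793 on the plus strand for Col8a2, chr6:4505368-4505617 on the plus strand for Col1a2, and chr1:45311288-45311537 on the plus strand for Col3a1. The Col1a2 window lies inside the gene as annotated for the coordinates given below, which begins further upstream at 4504814.
Col8a1: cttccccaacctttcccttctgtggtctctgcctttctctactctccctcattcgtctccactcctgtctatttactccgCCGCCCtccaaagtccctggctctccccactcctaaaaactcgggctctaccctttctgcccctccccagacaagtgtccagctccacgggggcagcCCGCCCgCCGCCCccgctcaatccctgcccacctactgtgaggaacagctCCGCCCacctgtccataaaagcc
Col8a2: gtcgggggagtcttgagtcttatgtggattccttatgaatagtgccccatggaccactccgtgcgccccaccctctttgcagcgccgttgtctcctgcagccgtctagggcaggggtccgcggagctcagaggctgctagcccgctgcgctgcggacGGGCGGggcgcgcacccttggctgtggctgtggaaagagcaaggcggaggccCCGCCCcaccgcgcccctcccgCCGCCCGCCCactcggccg
Col1a2: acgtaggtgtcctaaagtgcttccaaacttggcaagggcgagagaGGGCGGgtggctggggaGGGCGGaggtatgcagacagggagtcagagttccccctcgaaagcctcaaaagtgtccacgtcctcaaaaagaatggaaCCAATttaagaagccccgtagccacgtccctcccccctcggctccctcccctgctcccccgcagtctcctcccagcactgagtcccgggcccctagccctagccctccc
Col3a1: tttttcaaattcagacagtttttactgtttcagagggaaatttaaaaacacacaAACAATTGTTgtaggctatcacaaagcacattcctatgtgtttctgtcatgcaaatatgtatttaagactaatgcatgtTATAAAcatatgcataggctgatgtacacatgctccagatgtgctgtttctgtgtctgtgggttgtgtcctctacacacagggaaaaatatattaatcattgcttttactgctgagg
The 2 type VIII windows each held 4 GGGCGG matches and none of the other motifs, Col1a2 held 1 CCAAT and 2 GGGCGG matches, and Col3a1 held 1 TATAAA and 2 AACAAT matches. Windows of the same length were at hand for 30 of the 37 genes. GGGCGG occurred in 17 of the 30 and in 32.7% of all 32851 promoter windows, CCAAT in 11 and in 33.8%, TATAAA in 4 and in 12.4%, and AACAAT in 1, Col3a1, and in 9.42%. The collagens were counted by gene, with a match in any window of the gene, whereas the percentages are over single windows. A match is a description of the letters and was not tested as a binding site.

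Levels are in FPKM, sequenced fragments scaled by gene length and by library size, which allows levels of different genes to be compared. Of the 37 genes, 24 reached at least 1 FPKM in at least 3 of 18 libraries and were tested. The other 13 are accounted for further on. Tests were made with limma on log2(FPKM + 1), and a gene is called at a Benjamini-Hochberg adjusted p below 0.05 over all 13815 genes tested. Differences (log2) are on the log2(FPKM + 1) scale and are given with their standard error (SE), and this scale understates the change of genes near or below 1 FPKM. In bulk RNA, fewer cells of a type and less RNA per cell cannot be told apart.

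**Figure D1:**
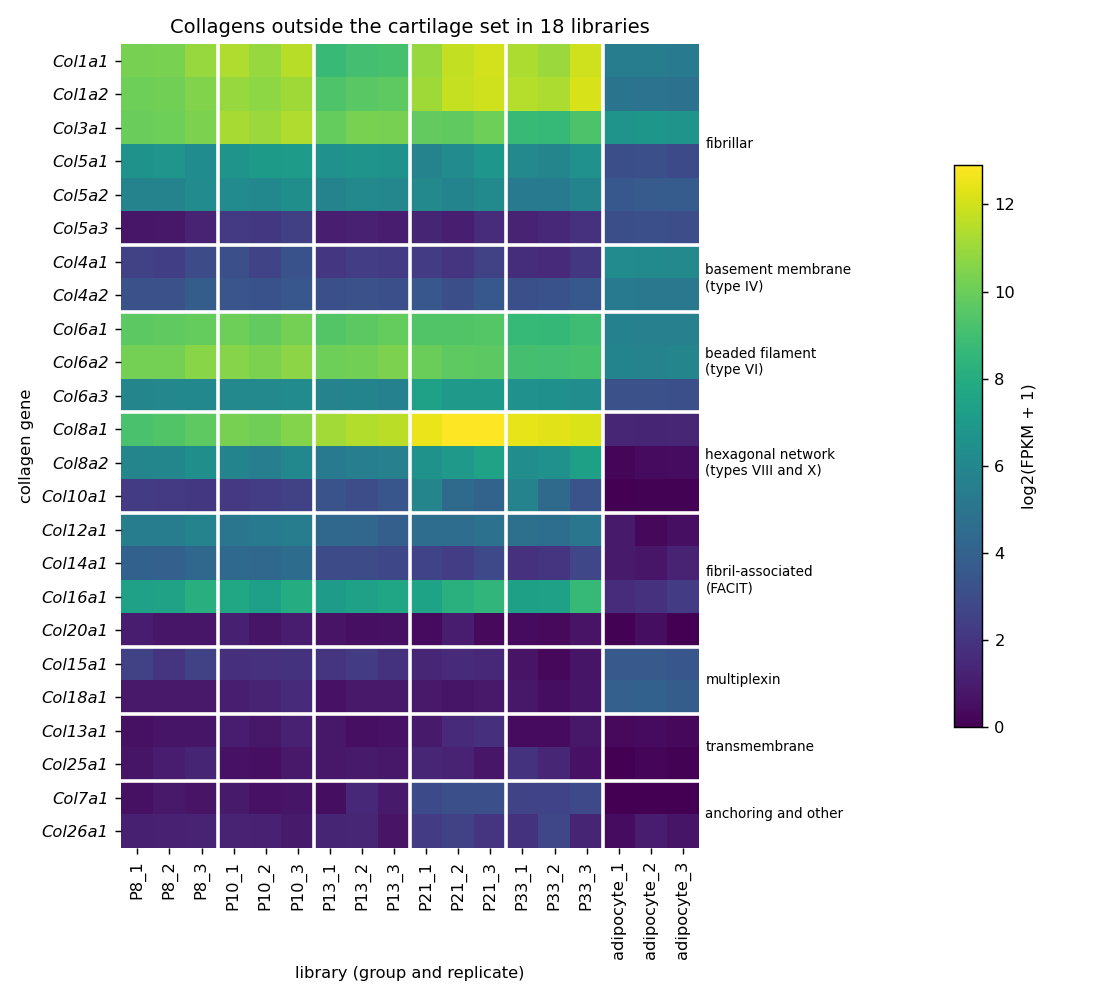
Heat map of the 24 tested collagens (rows, grouped by class) in the 18 libraries (columns, by group and replicate), coloured by log2(FPKM + 1). Col8a1 and the type I, III and VI genes are bright in all 15 lipochondrocyte libraries, and Col4a1, Col4a2, Col15a1 and Col18a1 are brightest in the 3 adipocyte libraries.

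Libraries held 12461965 to 27640142 reads with alignment rates of 73.19% to 84.44%. Of 10 chondrocyte markers, 9 had a mean of at least 1 FPKM at every lipochondrocyte stage, and their summed level was 6270 to 13345 FPKM against 0.82 to 1.01 FPKM in adipocytes. The exception was Matn1, a cartilage matrilin, listed at 0 in all libraries of P21 and P33. Summed adipocyte markers were 4.57 to 38.97 FPKM in lipochondrocytes and 85680 to 91260 FPKM in adipocytes. Sparc, a collagen-binding matrix protein, rose from 39224 to 50859 FPKM at P13 to 101177 to 118046 FPKM at P21. Rescaling the libraries by median-of-ratios factors moved the median difference of all genes from -0.19 to 0.00 for P10 against P8, from 0.15 to 0.00 for P13 against P10, from 0.29 to 0.01 for P21 against P13, and from -0.28 to -0.02 for P33 against adipocytes. Counts of called collagens are therefore given under both scalings, and counts of the other lists where they differ.

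The 37 genes together held 6419 to 8718 FPKM at P8, 9595 to 12773 at P10, 6477 to 8464 at P13, 13231 to 19563 at P21 and 11614 to 15750 at P33, against 444 to 464 FPKM in adipocytes. Every lipochondrocyte library lay far above every adipocyte library, and the P13 libraries overlapped those of P8. The 7 cartilage collagens summed to 9256 to 11896 FPKM at P8, 4027 to 4972 at P21 and 1224 to 1881 at P33. The share of the summed collagen FPKM outside the cartilage set was 41.6% ± 0.68 (SD, n = 3) at P8, 50.6% ± 0.59 (SD, n = 3) at P10 and 41.2% ± 0.29 (SD, n = 3) at P13. It was 78.2% ± 5.2 (SD, n = 3) at P21 and 89.1% ± 3.4 (SD, n = 3) at P33, with no overlap between the sorted and the buoyant lipochondrocyte libraries. Within the 37 genes, Col8a1 alone made up 9.64% ± 0.40 (SD, n = 3) of the sum at P8, 35.4% ± 0.80 (SD, n = 3) at P13 and 42.3% ± 2.5 (SD, n = 3) at P21.

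**Figure D2:**
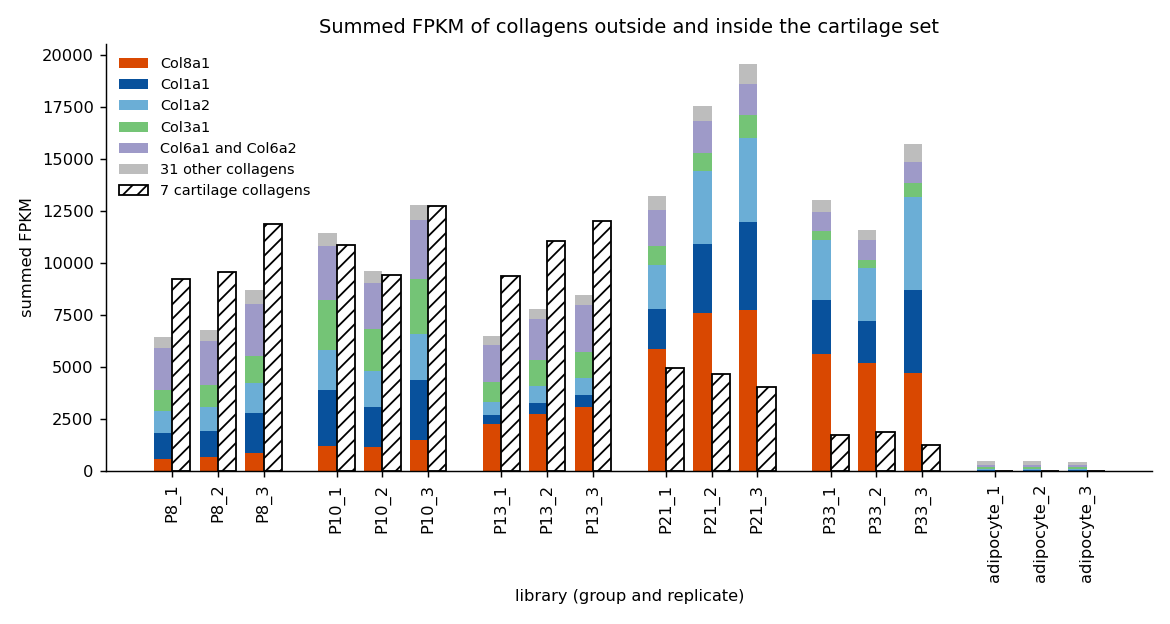
Summed FPKM (linear axis from 0) in each of the 18 libraries, with the 37 collagens outside the cartilage set as stacked bars and the 7 cartilage collagens as hatched bars. The hatched bar is the taller in every library of P8 and P13 and the shorter in every library of P21 and P33, and the share of Col8a1 grows from P8 to P21.

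Across the comparisons, the tested collagens differed most from adipocytes. At P33, 17 of the 24 were higher than in adipocytes and 5 lower, where 68.5% of all genes were called, 24.0% higher and 44.5% lower. The median difference over the 24 was 2.43, against -0.28 over all genes. From P8 to P10, 4 were higher and 1 lower (of all genes 11.0% were called, 1.90% higher and 9.14% lower), and 10 were higher and 0 lower by limma after rescaling. Before rescaling, 7 of the 24 had an unadjusted p under 0.05. From P10 to P13, 1 was higher and 10 lower (of all genes 22.6%, 18.6% higher and 4.03% lower), with 1 and 13 after rescaling. P13 against P8 gave 1 higher and 3 lower (of all genes 4.21%, 2.69% higher and 1.52% lower), and the same counts after rescaling. From P13 to P21, 10 were higher and 2 lower (of all genes 43.1%, 36.0% higher and 7.04% lower), with 8 and 7 after rescaling. From P21 to P33, 0 were higher and 6 lower (of all genes 10.0%, 2.87% higher and 7.17% lower), 9 of the 24 having an unadjusted p under 0.05, and rescaling gave 0 and 6. All 6 were lost when limma was fitted to these 2 groups alone (lowest adjusted p = 0.0673), where 8 of the 24 had an unadjusted p under 0.05. The comparisons that share P8, P10, P13, P21 or P33 libraries are not independent of each other.

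**Figure D3:**
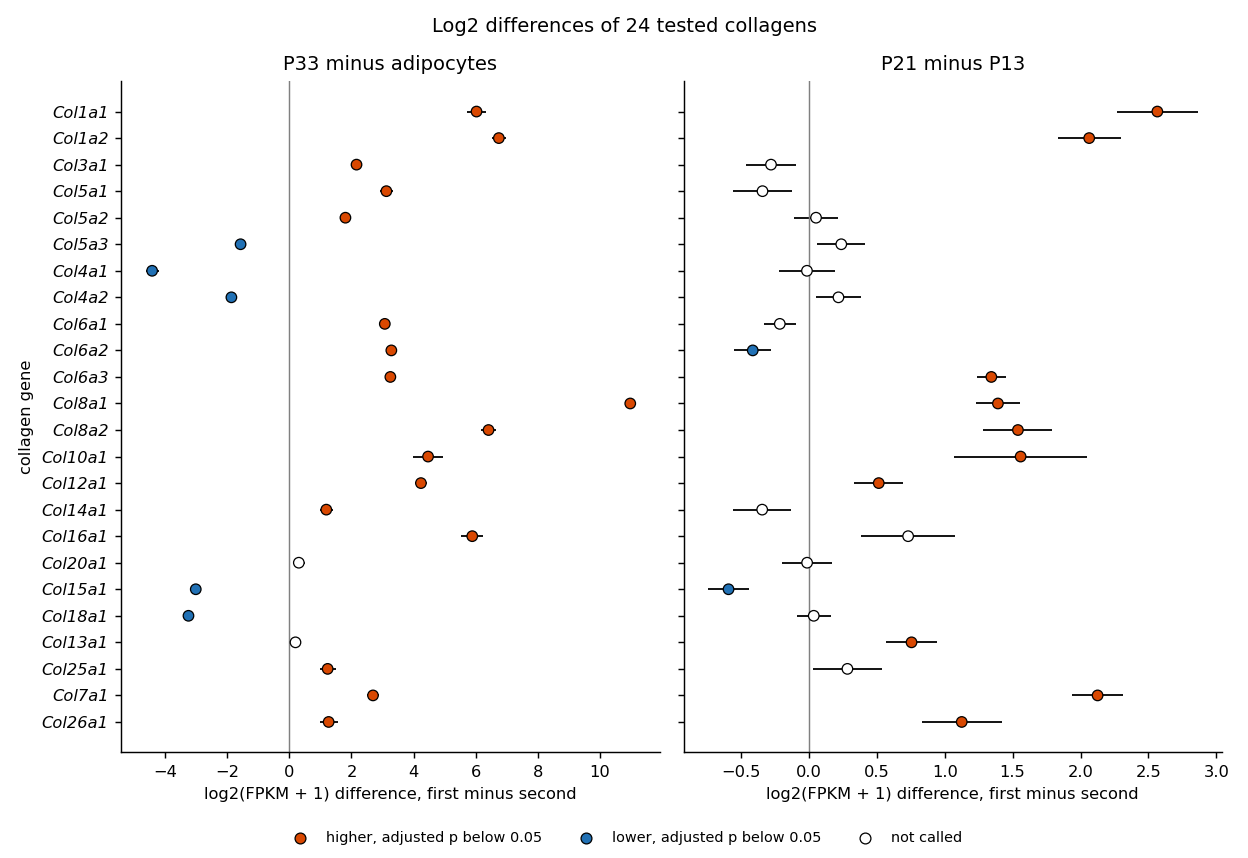
Differences in log2(FPKM + 1) with SE for the 24 tested collagens, P33 minus adipocytes on the left and P21 minus P13 on the right, coloured by the call. Col8a1 stands furthest to the right against adipocytes at 10.97 and Col4a1 furthest to the left at -4.41, and Col1a1 has the greatest rise from P13 to P21 at 2.57.

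The hexagonal network collagens were led by Col8a1, the alpha 1 chain of type VIII, known from the basement membrane of the corneal endothelium and from blood vessel walls (ENSMUSG00000068196, chromosome 16, 57624258 to 57754737, minus strand). Its levels were 595, 681 and 837 FPKM at P8, 1216, 1128 and 1475 at P10, and 2243, 2756 and 3067 at P13. They reached 5854, 7577 and 7728 FPKM at P21 and stood at 5629, 5207 and 4701 at P33, against 1.64, 1.50 and 1.59 in adipocytes. No 2 neighbouring stages overlapped up to P33, and every adipocyte library was far below. Col8a1 rose by 0.86 (SE 0.16, adjusted p = 0.00529) from P8 to P10, by 1.08 (SE 0.16, adjusted p = 0.00031) from P10 to P13 and by 1.39 (SE 0.16, adjusted p = 8.86e-06) from P13 to P21. P33 minus P21 was -0.44 (SE 0.16, adjusted p = 0.103), which passed the test only without P21 replicate 1 (-0.57, adjusted p = 0.0486). The rise from P8 to P10 missed the threshold when only those 2 groups were fitted (adjusted p = 0.0649). By mean level it ranked 6 among the 37 genes at P8, 5 at P10 and 1 from P13 on, and at P21 it ranked 22 among all genes of the table. The P33 mean was 3285 times that of adipocytes (difference 10.97, SE 0.16, adjusted p = 6.42e-17).

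The partner chain Col8a2 behaved differently before P21. Its levels were 57.2, 60.1 and 84.4 FPKM at P8, 55.5, 45.4 and 64.0 at P10 and 37.5, 44.8 and 49.1 at P13, and none of the 3 comparisons among these stages was called. They were 98.2, 125 and 173 FPKM at P21 and 78.8, 93.2 and 163 at P33, and 0.15, 0.30 and 0.34 in adipocytes. The P21 libraries all lay above those of P13, and P21 and P33 overlapped. Col8a2 rose by 1.54 from P13 to P21 (SE 0.25, adjusted p = 0.000242) and was 6.41 higher at P33 than in adipocytes (SE 0.25, adjusted p = 5.39e-12). The ratio of Col8a1 to Col8a2 was 9.92 to 11.3 at P8, 21.9 to 24.8 at P10 and 59.9 to 62.4 at P13, and 28.9 to 71.5 over P21 and P33. The alpha 1 chain thus exceeded the alpha 2 chain in every lipochondrocyte library, by a ratio that did not overlap among P8, P10 and P13.

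Col10a1, the type X chain made by hypertrophic chondrocytes, was far lower. Its levels were 3.95, 3.55 and 3.31 FPKM at P8, 3.47, 4.07 and 4.59 at P10, and 8.88, 7.36 and 9.83 at P13. They were 58.7, 21.4 and 16.1 FPKM at P21 and 54.3, 21.5 and 8.81 at P33, and 0, 0.07 and 0.06 in adipocytes. The spread within P21 and P33 was wide, and replicate 1 of each stood well above the other two. From P13 to P21 it rose by 1.56 (SE 0.49, adjusted p = 0.0184), a call lost without P21 replicate 1 (1.02, adjusted p = 0.0965), without P13 replicate 2 (1.46, adjusted p = 0.0552) and after rescaling (1.14, adjusted p = 0.0879). Against adipocytes it was 4.46 higher at P33 (SE 0.49, adjusted p = 8.97e-07). All 7 osteoblast markers together summed to 0.49 to 6.49 FPKM in any library of the series.

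**Figure D4:**
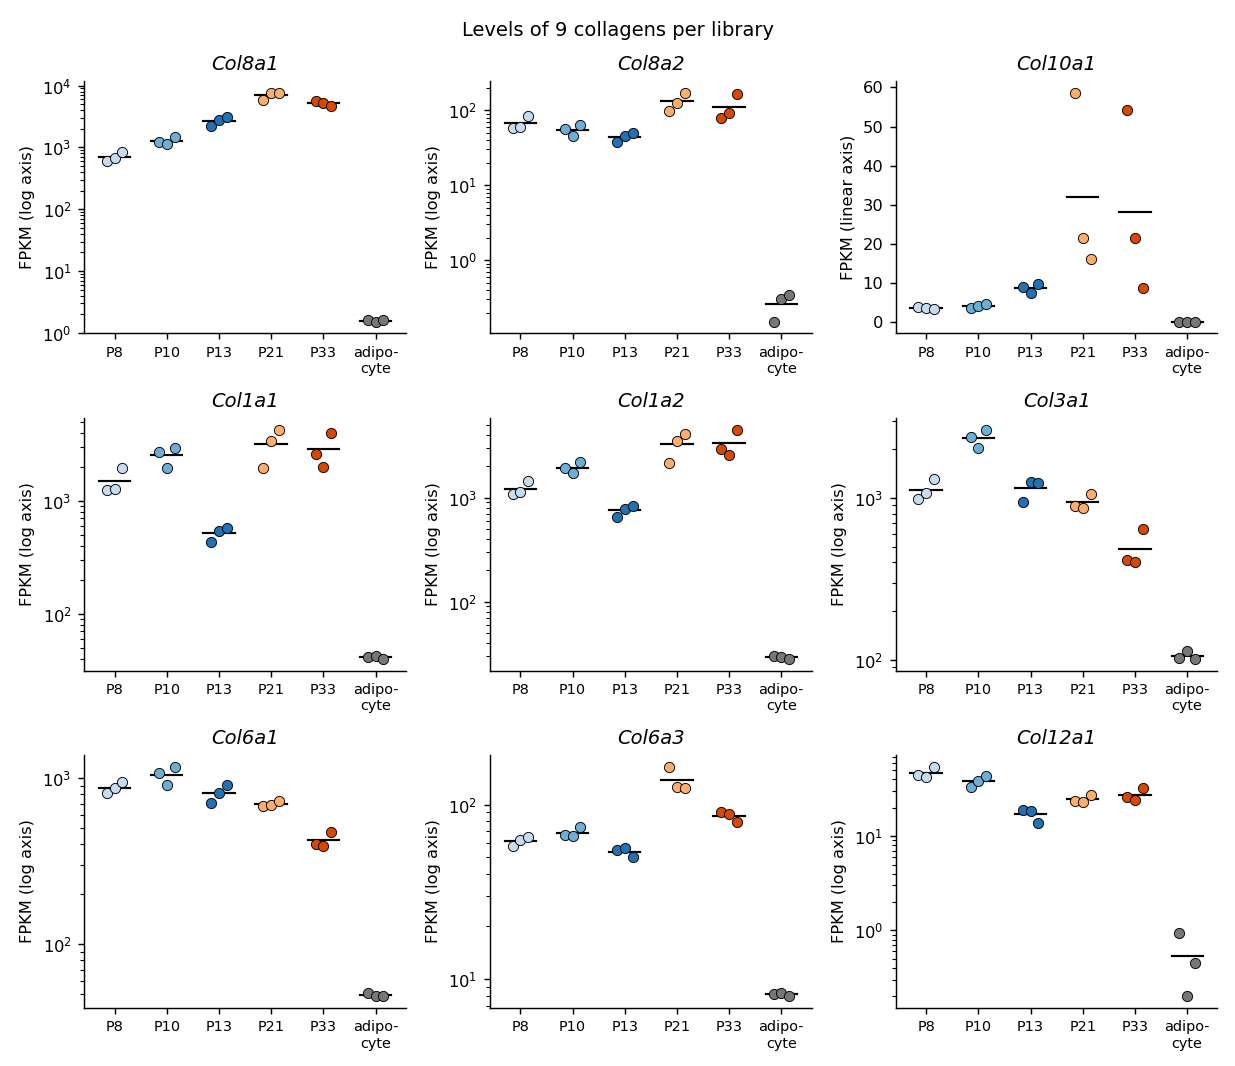
FPKM of 9 collagens in each library (points) with the group mean (line), on log axes except Col10a1, which is on a linear axis. Col8a1 climbs stage by stage to P21, Col1a1 and Col1a2 have their lowest lipochondrocyte values at P13, Col3a1 and Col6a1 have theirs at P33, adipocytes are below every lipochondrocyte library in all 9 panels, and Col10a1 is spread from 8.81 to 58.7 FPKM over P21 and P33.

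Type I collagen, the main fibril former of skin and bone, is a mixed helix of the products of Col1a1 (chromosome 11, 94936224 to 94953042, plus strand) and Col1a2 (chromosome 6, 4504814 to 4541544, plus strand). Col1a1 was 1229, 1257 and 1958 FPKM at P8, 2692, 1959 and 2918 at P10 and 426, 535 and 577 at P13. It was 1928, 3342 and 4242 FPKM at P21, 2578, 1984 and 3998 at P33, and 41.5, 42.2 and 39.5 in adipocytes. The P13 libraries lay below all other lipochondrocyte libraries, and P10, P21 and P33 overlapped one another. Col1a1 fell by 2.29 from P10 to P13 (SE 0.30, adjusted p = 0.00011), rose by 2.57 from P13 to P21 (SE 0.30, adjusted p = 9.08e-06) and was also lower at P13 than at P8, at -1.51 (SE 0.30, adjusted p = 0.00774). P10 minus P8 was 0.78 (SE 0.30, adjusted p = 0.1) as deposited and was called after rescaling (1.12, adjusted p = 0.0434).

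Col1a2 followed the same course at 1077, 1141 and 1430 FPKM at P8, 1912, 1705 and 2187 at P10 and 645, 777 and 831 at P13. It was 2149, 3489 and 4072 FPKM at P21, 2900, 2578 and 4494 at P33, and 30.2, 29.4 and 27.9 in adipocytes. As for Col1a1, the P13 libraries were the lowest of the lipochondrocytes. P10 minus P8 was 0.67 (SE 0.23, adjusted p = 0.0747), and 1.01 after rescaling (adjusted p = 0.0211). Col1a2 fell by 1.36 from P10 to P13 (SE 0.23, adjusted p = 0.000833) and rose by 2.06 from P13 to P21 (SE 0.23, adjusted p = 7.12e-06). P33 minus P21 was -0.14 for Col1a1 (adjusted p = 0.851) and 0.05 for Col1a2 (adjusted p = 0.951), neither of which passed the test. Across the 15 lipochondrocyte libraries the log2 levels of the pair had a Pearson r of 0.943, a description over libraries that share stage and isolation. The P33 means were 69.5 and 114 times those of adipocytes.

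Type III collagen, which forms fine fibrils with type I in elastic tissues, shared the fall of type I from P10 to P13 but not its rise to P21. Col3a1 (chromosome 1, 45311538 to 45349706, plus strand) was 987, 1075 and 1308 FPKM at P8, 2394, 2042 and 2648 at P10 and 945, 1259 and 1240 at P13. It was 896, 868 and 1062 FPKM at P21, 415, 402 and 640 at P33, and 102, 113 and 101 in adipocytes. P13 minus P8 was 0.03 for Col3a1 (SE 0.18, adjusted p = 0.98), and the ratio of Col3a1 to Col1a1 was 0.668 to 0.856 at P8 and 2.15 to 2.36 at P13. All P10 libraries were above, and all P33 libraries below, the rest of the lipochondrocytes. Col3a1 rose by 1.07 from P8 to P10 (SE 0.18, adjusted p = 0.00278), fell by 1.04 from P10 to P13 (SE 0.18, adjusted p = 0.000989) and fell by 0.98 from P21 to P33 (SE 0.18, adjusted p = 0.00306). P21 minus P13 was -0.28 (SE 0.18, adjusted p = 0.236), and -0.73 after rescaling (adjusted p = 0.00482). It remained 2.16 above adipocytes at P33 (SE 0.18, adjusted p = 4.42e-08), and in adipocytes it was the most abundant of the 37 genes.

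Type V chains set the width of type I fibrils. Col5a1 ranged from 53.9 to 134 FPKM in lipochondrocytes and from 6.47 to 7.76 in adipocytes, and Col5a2 from 37.2 to 86.2 and from 10.9 to 12.5 FPKM. Neither was called between stages as deposited. After rescaling, Col5a2 was 0.65 higher at P10 than at P8 (adjusted p = 0.015, 0.32 as deposited) and P13 minus P10 was -0.58 (adjusted p = 0.0129, -0.30 as deposited). P21 minus P13 after rescaling was -0.79 for Col5a1 (adjusted p = 0.0205) and -0.39 for Col5a2 (adjusted p = 0.0491), where Col5a2 had been 0.05 (adjusted p = 0.827). Both were higher at P33 than in adipocytes, by 3.12 (SE 0.22, adjusted p = 4.97e-09) and 1.81 (SE 0.16, adjusted p = 1.09e-07). Col5a2 lies 24.6 kb from Col3a1 on chromosome 1, on the opposite strand. The third chain ran the other way: Col5a3 was 7.60, 7.77 and 7.32 FPKM in adipocytes and 1.47, 1.69 and 2.62 at P33. P33 minus adipocytes was -1.57 (SE 0.18, adjusted p = 1.16e-06). At P10 it stood at 3.53, 3.34 and 4.46 FPKM, above every other lipochondrocyte library, with a rise of 1.27 from P8 (SE 0.18, adjusted p = 0.00055) and a fall by 1.13 to P13 (SE 0.18, adjusted p = 0.000412).

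Markers of fibroblasts and perichondrium rose in sum from P8 to P10 and fell from P10 to P13, as Col3a1 and Col5a3 did. The summed level of 14 such markers, none of them a collagen, was 517 to 621 FPKM at P8, 1122 to 1247 at P10, 335 to 433 at P13, 708 to 973 at P21 and 480 to 553 at P33, and 333 to 360 in adipocytes. Of the 14, 6 rose from P8 to P10 and 0 fell (9 and 0 after rescaling), 10 fell and 1 rose from P10 to P13 (11 and 1), and 6 rose and 2 fell from P13 to P21 (5 and 3). Of all genes, 1.90% rose and 9.14% fell from P8 to P10, and 18.6% rose and 4.03% fell from P10 to P13. From P13 to P21, 36.0% of all genes rose and 7.04% fell. P13 against P8 gave 1 of the 14 higher and 1 lower, also after rescaling, against 2.69% and 1.52% of all genes. In that comparison Col1a1 was lower and Col3a1 was not called. Postn, a fibroblast matrix protein, was 558, 574 and 625 FPKM at P10 and 81.2, 112 and 112 FPKM at P13. None of the 14 was at 0 in all libraries of a lipochondrocyte stage, and the part of these cells in the collagen differences was not tested. Of all genes, 2.87% rose and 7.17% fell from P21 to P33, where Col3a1 fell. Of the 14, 3 rose and 3 fell there. Of 9 chondrocyte markers 6 fell and 0 rose (5 and 0 after rescaling), and of 9 macrophage markers 5 rose and 0 fell (4 and 0). The part of these cells in the fall of Col3a1 and type VI was not tested.

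Type VI collagen is assembled from 3 chains, of which Col6a1 and Col6a2 lie 85.2 kb apart on chromosome 10 and were nearly proportional (Pearson r 0.970 over 15 lipochondrocyte libraries). Col6a1 was 812, 878 and 946 FPKM at P8, 1069, 906 and 1173 at P10, 714, 813 and 916 at P13, 679, 689 and 728 at P21, and 403, 392 and 474 at P33. Col6a2 was 1198, 1206 and 1555 FPKM at P8, 1541, 1307 and 1651 at P10, 1076, 1160 and 1336 at P13, 1039, 846 and 804 at P21, and 544, 528 and 574 at P33. Both had all their P33 libraries below those of every earlier stage. From P8 to P10 none of the 3 chains was called as deposited, and all were higher after rescaling, by 0.59 for Col6a1 (adjusted p = 0.00699), 0.52 for Col6a2 (adjusted p = 0.0183) and 0.48 for Col6a3 (adjusted p = 0.00744). From P21 to P33 Col6a1 and Col6a2 fell by 0.73 (SE 0.12, adjusted p = 0.00131) and 0.70 (SE 0.14, adjusted p = 0.00414).

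Col6a3, the long chain of the same filament, broke from that course after P13. It was 57.9, 62.4 and 65.4 FPKM at P8, 67.1, 66.0 and 73.8 at P10, 54.7, 56.1 and 50.0 at P13, 165, 127 and 124 at P21, and 90.6, 88.4 and 79.8 at P33. P21 stood above and P33 between P21 and the sorted stages, without overlap. From P10 to P13 Col6a1 fell by 0.36 (SE 0.12, adjusted p = 0.0409) and Col6a3 by 0.36 (SE 0.11, adjusted p = 0.0255), calls lost without P10 replicate 1 (adjusted p = 0.119 and 0.0577) or P10 replicate 3 (0.152 and 0.0882), among others. P13 minus P10 was -0.33 for Col6a2 (adjusted p = 0.0967), and -0.61 after rescaling (adjusted p = 0.00255). Col6a3 rose by 1.34 from P13 to P21 (SE 0.11, adjusted p = 1.92e-07), while Col6a2 fell by 0.41 (SE 0.14, adjusted p = 0.0241) and Col6a1 differed by -0.21 (adjusted p = 0.167), or by -0.67 after rescaling (adjusted p = 0.000457). The Col6a2 call was lost without P13 replicate 3, P21 replicate 2 or P21 replicate 3, with adjusted p of 0.103, 0.0783 and 0.0911. The mean ratio of Col6a3 to Col6a2 was 0.0474 at P8, 0.0462 at P10, 0.0456 at P13, 0.154 at P21 and 0.158 at P33, and 0.147 in adipocytes. In adipocytes Col6a1 was 48.5 to 50.8, Col6a2 52.9 to 58.6 and Col6a3 7.93 to 8.31 FPKM, and the 3 chains were higher at P33 by 3.07 (SE 0.12, adjusted p = 4.38e-12), 3.28 (SE 0.14, adjusted p = 9e-12) and 3.25 (SE 0.11, adjusted p = 4.97e-13).

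Among the fibril-associated collagens, Col12a1 and Col14a1 were higher in the youngest cells. Col12a1, a fibril linker of tendon and fascia, was 44.1, 42.0 and 54.5 FPKM at P8, 32.9, 38.0 and 43.5 at P10, 19.0, 18.4 and 13.9 at P13, 23.7, 23.2 and 27.1 at P21 and 25.8, 24.1 and 32.6 at P33. All P13 libraries were below those of the other stages. Col12a1 fell by 1.12 from P10 to P13 (SE 0.18, adjusted p = 0.000582), was lower at P13 than at P8 (-1.41, SE 0.18, adjusted p = 0.00028) and rose by 0.51 from P13 to P21 (SE 0.18, adjusted p = 0.0331), the latter lost after rescaling (0.08, adjusted p = 0.746), with a pseudocount of 0.1 (adjusted p = 0.182) and without P13 replicate 3 or any single P21 replicate (adjusted p 0.053 to 0.143). Col14a1, a related chain of skin and tendon, was 15.3, 14.6 and 18.8 FPKM at P8, 20.1, 18.9 and 22.3 at P10, 7.05, 6.96 and 5.91 at P13, 5.01, 4.09 and 6.09 at P21 and 2.59, 2.91 and 5.83 at P33. The P8 and P10 libraries lay above all later ones, and P21 overlapped both P13 and P33. Col14a1 fell by 1.49 from P10 to P13 (SE 0.21, adjusted p = 0.000234) and was lower at P13 than at P8 (-1.17, SE 0.21, adjusted p = 0.00454). P21 minus P13 was -0.34 (adjusted p = 0.212), and -0.73 after rescaling (adjusted p = 0.0131). In adipocytes Col12a1 was 0.20 to 0.94 and Col14a1 0.71 to 1.46 FPKM, and at P33 they were higher by 4.23 (SE 0.18, adjusted p = 1.36e-11) and 1.19 (SE 0.21, adjusted p = 0.000145).

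Col16a1, a fibril-associated chain of skin and cartilage, was the most abundant of its class among the collagens outside the cartilage set. It was 169, 172 and 274 FPKM at P8, 215, 155 and 258 at P10, 135, 165 and 189 at P13, 182, 292 and 366 at P21, 164, 166 and 403 at P33, and 2.15, 2.55 and 3.82 in adipocytes. All lipochondrocyte stages overlapped, and no comparison between stages was called as deposited. P21 minus P13 was 0.73 (SE 0.35, adjusted p = 0.104) and 1.01 without P21 replicate 1 (adjusted p = 0.0408). Against adipocytes it was 5.89 higher at P33 (SE 0.35, adjusted p = 6.22e-10). Col20a1 reached 1.16 FPKM at most, passed the filter only with the P10 libraries and was called in no comparison.

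The collagens that were higher in adipocytes belonged, apart from Col5a3, to the basement membrane zone. Col4a1 was 4.85, 4.27 and 7.10 FPKM at P8, 7.79, 5.25 and 8.48 at P10, 3.07, 4.13 and 3.99 at P13, 3.72, 2.81 and 4.63 at P21 and 2.18, 1.89 and 3.28 at P33, against 74.8, 72.4 and 67.5 in adipocytes. Col4a2 was 8.14, 8.28 and 13.1 FPKM at P8, 9.74, 8.40 and 10.4 at P10, 7.75, 8.29 and 8.05 at P13, 10.3, 7.63 and 10.8 at P21 and 8.05, 8.54 and 10.8 at P33, against 37.6, 34.8 and 34.5 in adipocytes. Adipocytes exceeded every lipochondrocyte library for both. P33 minus adipocytes was -4.41 for Col4a1 (SE 0.21, adjusted p = 3.65e-11) and -1.86 for Col4a2 (SE 0.17, adjusted p = 8.32e-08).

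The 2 genes start head to head on chromosome 8 in GRCm38. The annotated Col4a1 (11198423 to 11312826, minus strand) and Col4a2 (11312805 to 11449287, plus strand) overlap by 22 bases at their 5′ ends. That stretch is shown, from the plus strand of GRCm38.p6 with no bases in capitals, because reads in it belong to either gene and the strand setting of the counting is not given in the sources used here.
Col4a1 and Col4a2 shared start: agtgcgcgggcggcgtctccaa
The ratio of Col4a1 to Col4a2 was 0.516 to 0.596 at P8, 0.625 to 0.811 at P10, 0.396 to 0.498 at P13, 0.359 to 0.428 at P21 and 0.221 to 0.304 at P33, and 1.96 to 2.08 in adipocytes. In lipochondrocytes Col4a2 exceeded Col4a1 in all 15 libraries, and in adipocytes the order was the reverse in all 3. From P10 to P13, Col4a1 fell by 0.77 (SE 0.21, adjusted p = 0.0145), and the call was lost without P10 replicate 1, P10 replicate 3 or P13 replicate 1 (adjusted p 0.0608, 0.0583 and 0.0543). Col4a2 was called between no stages as deposited, and P13 minus P10 moved from -0.22 (adjusted p = 0.393) to -0.48 after rescaling (adjusted p = 0.0342). The correlation of the pair over the 15 lipochondrocyte libraries was 0.537, lower than the values of the type I and type VI pairs, again as a description.

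**Figure D5:**
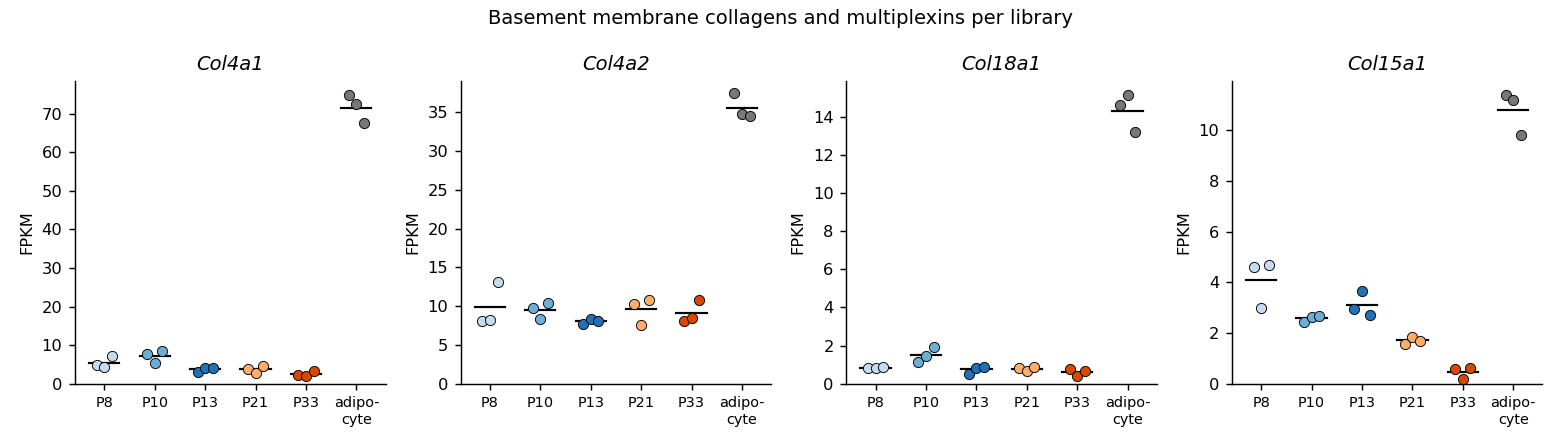
FPKM on linear axes from 0 of Col4a1, Col4a2, Col18a1 and Col15a1 in each library (points) with the group mean (line). The 3 adipocyte libraries are the highest in all 4 panels, Col4a2 stays between 7.63 and 13.1 FPKM over the lipochondrocyte stages, and Col15a1 is lowest at P33.

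The multiplexins Col15a1 and Col18a1 carry sugar chains, and the end of type XVIII is the source of endostatin. Col18a1 was 14.6, 15.1 and 13.2 FPKM in adipocytes and 0.41 to 1.90 FPKM in lipochondrocytes, so that the groups stood far apart (P33 minus adipocytes -3.24, SE 0.13, adjusted p = 4.14e-12). Col15a1 was 11.4, 11.2 and 9.83 FPKM in adipocytes. In lipochondrocytes it was 4.62, 2.98 and 4.69 FPKM at P8, 2.44, 2.63 and 2.66 at P10, 2.94, 3.67 and 2.70 at P13, 1.58, 1.86 and 1.70 at P21 and 0.59, 0.20 and 0.64 at P33. P21 lay below all sorted libraries and P33 below P21. Col15a1 fell by 0.59 from P13 to P21 (SE 0.15, adjusted p = 0.00586) and by 0.89 from P21 to P33 (SE 0.15, adjusted p = 0.00159), and at P33 it was lower than in adipocytes, at -3.01 (SE 0.15, adjusted p = 8.77e-11). From P8 to P10 Col18a1 rose by 0.42 (SE 0.13, adjusted p = 0.0448) and Col15a1 fell by 0.49 (SE 0.15, adjusted p = 0.0495), both close to the threshold. Each was lost in 5 of the 6 fits that left out a library, with adjusted p of 0.0813 to 0.146 for Col18a1 and 0.0818 to 0.158 for Col15a1. The Col18a1 call held without P10 replicate 1 and the Col15a1 call without P8 replicate 2. Rescaling moved Col15a1 to -0.25 (adjusted p = 0.442) and Col18a1 to 0.66 (adjusted p = 0.00345). From P10 to P13 Col18a1 fell by 0.51 (SE 0.13, adjusted p = 0.00997), a call lost when only those 2 groups were fitted (adjusted p = 0.064).

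Endothelial markers, whose cells also make these collagens, differed in the same direction as the basement membrane genes between P33 and adipocytes. The 12 markers summed to 13.2 to 31.9 FPKM in lipochondrocytes and to 674 to 711 FPKM in adipocytes. At P33, 11 of the 12 were lower than in adipocytes and 1 was higher (10 and 1 after rescaling), and none was at 0 in all libraries of a group. Of all genes, 44.5% were lower and 24.0% higher at P33. Between stages, 1 of the 12 rose and 0 fell from P10 to P13 (0 and 0 after rescaling). P13 against P8 gave 0 higher and 1 lower (0 and 0), and from P13 to P21 1 rose and 1 fell (0 and 0). Of all genes, 18.6% rose and 4.03% fell from P10 to P13, and 2.69% were higher and 1.52% lower at P13 than at P8. The shares from P13 to P21 were 36.0% and 7.04%. Macrophage markers summed to 2.30 to 59.3 FPKM in lipochondrocytes and 755 to 818 FPKM in adipocytes. Smooth muscle and pericyte markers differed less, at 58.6 to 139 and 121 to 122 FPKM. The part of endothelial and other stromal cells of the fat in the higher Col4a1, Col4a2, Col15a1 and Col18a1 was not tested.

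Of the remaining tested genes, Col7a1 makes the anchoring fibrils that tie skin epithelium to the dermis. It was 0.50, 0.87 and 0.59 FPKM at P8, 0.93, 0.54 and 0.65 at P10 and 0.38, 1.75 and 0.88 at P13. It was 6.45, 7.94 and 7.90 FPKM at P21 and 5.32, 4.98 and 6.14 at P33, and was listed at 0 in all 3 adipocyte libraries. The buoyant lipochondrocyte libraries did not overlap the sorted ones. Col7a1 rose by 2.13 from P13 to P21 (SE 0.19, adjusted p = 7.12e-07). Keratinocyte markers, 10 in all, summed to 0.78 to 4.72 FPKM in every library of the series, with 2.54 to 4.72 FPKM at P21 and P33 and 0.78 to 1.46 FPKM in the sorted libraries. The part of such cells in Col7a1 was not tested.

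Col26a1 was 1.57, 1.64 and 0.59 FPKM at P13 and 3.80, 4.82 and 3.01 at P21, a rise by 1.13 (SE 0.29, adjusted p = 0.00663). At P33 it ran from 1.51 to 5.80 FPKM, above the 0.36 to 0.98 FPKM of adipocytes (1.27, SE 0.29, adjusted p = 0.00134). Of the transmembrane collagens, Col13a1, found at the neuromuscular junction, was 0.77, 0.44 and 0.57 FPKM at P13, 0.92, 1.86 and 2.51 at P21 and 0.30, 0.28 and 0.80 at P33. It rose by 0.76 (SE 0.19, adjusted p = 0.00459) and fell by 0.90 (SE 0.19, adjusted p = 0.00626). Both calls were lost when limma was fitted only to the 2 groups compared (adjusted p = 0.0536 for the rise and 0.196 for the fall). Without the P10 or the P21 libraries Col13a1 would not have passed the filter. Skeletal muscle markers summed to 24.2 to 38.2 FPKM at P13, to 319, 84.3 and 570 FPKM at P21 and to 27.7, 55.5 and 224 FPKM at P33. All 7 tested were higher at P21 than at P13, against 36.0% of all genes. From P21 to P33, 0 of the 7 rose and 1 fell, against 2.87% and 7.17% of all genes. The part of muscle cells in Col13a1 was not tested. Col25a1, the other transmembrane member, was 0.45 to 2.76 FPKM in lipochondrocytes and 0 to 0.12 in adipocytes, called only in that comparison (1.23, SE 0.25, adjusted p = 0.000503).

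The 13 genes that did not pass the filter were the fibrillar Col24a1, the type IV chains Col4a3, Col4a4, Col4a5 and Col4a6, the type VI chains Col6a4, Col6a5 and Col6a6, and Col19a1, Col22a1, Col17a1, Col23a1 and Col28a1. Their highest value in any library was 1.29 FPKM, for Col6a6 at P8, and 3 of their values reached 1 FPKM. In all 18 libraries 6 of them were above 0. Col4a3 and Col4a4, chains of the kidney glomerular basement membrane, start 71 bases apart on opposite strands and were both low, Col4a3 at 0.01 to 0.23 FPKM. A value near 0 at this depth does not show that a gene is silent.

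Within P21 and P33 the replicates differed in type I and type X levels. P21 replicate 1 had the lowest Col1a1, Col1a2, Col8a2 and Col16a1 of its group and the highest Col10a1, and P33 replicate 3 had the highest Col1a1, Col1a2, Col8a2 and Col16a1 of its group and the lowest Col10a1 and Col8a1. The share of Col8a1 in the summed level was 29.8% in P33 replicate 3 and 43.3% and 44.8% in the other two. Lum, a fibroblast proteoglycan, was 112, 176 and 207 FPKM at P33 and 337, 352 and 521 FPKM at P21, with the highest value in replicate 3 of each. Muscle markers were also highest in replicate 3 of each. Without P21 replicate 1, the rise of Col10a1 from P13 to P21 was lost, and Col16a1 from P13 to P21 and Col8a1 from P21 to P33 passed the test, with the values given above. Without P33 replicate 3, P33 minus P21 passed the limma test for Col14a1 (-0.68, adjusted p = 0.0179) and Col5a2 (-0.68, adjusted p = 0.0124). With all libraries these were -0.39 (adjusted p = 0.294) and -0.51 (adjusted p = 0.0642).

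The genes that modify and secrete collagen were called in numbers that depended on the scaling. Of 22 genes for hydroxylation, folding and secretion, 2 rose and 4 fell from P10 to P13 (0 and 9 after rescaling), 5 rose and 6 fell from P13 to P21 (2 and 14 after rescaling), 0 rose and 8 fell from P21 to P33 (0 and 9), and 12 were higher and 3 lower at P33 than in adipocytes (15 and 3). Of all genes, 18.6% rose and 4.03% fell from P10 to P13, and 36.0% rose and 7.04% fell from P13 to P21. From P21 to P33, 2.87% of all genes rose and 7.17% fell. Against adipocytes, 24.0% were higher at P33 and 44.5% lower. Serpinh1, the collagen chaperone HSP47, was 571, 627 and 773 FPKM at P13, 167, 223 and 316 at P21 and 65.7, 82.9 and 115 at P33, falling by 1.51 (SE 0.35, adjusted p = 0.00304) and then by 1.40 (SE 0.35, adjusted p = 0.0194). It was lower at P33 than in adipocytes (-1.39, SE 0.35, adjusted p = 0.00247), where 219 to 234 FPKM were measured. P4ha2, a prolyl hydroxylase subunit, fell by 1.22 from P13 to P21 (SE 0.09, adjusted p = 1.38e-07). Type I and type VIII transcripts were at or near their highest at P21 and P33. Serpinh1 and P4ha2 were at their lowest of the lipochondrocyte stages there, while other members of the list rose. Colgalt2 was 0.58, 1.02 and 0.95 FPKM at P13 and 7.18, 7.87 and 6.13 FPKM at P21, and the rise of Sparc is given above. At P33 Fkbp10, a collagen chaperone, was 4.38 above adipocytes (SE 0.16, adjusted p = 2.38e-12) and Sparc 5.95 (SE 0.20, adjusted p = 8.21e-13).

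Of 13 genes for procollagen cleavage and crosslinking, 11 were tested. From P8 to P10, 2 of them rose, Pcolce by 1.12 and Loxl2 by 0.75 (4 after rescaling), and from P13 to P21, 5 rose and 2 fell (4 and 4 after rescaling). Of all genes, 1.90% rose from P8 to P10, and 36.0% rose and 7.04% fell from P13 to P21. Pcolce, the enhancer of procollagen cleavage, was 64.7, 65.4 and 82.4 FPKM at P13 and 160, 264 and 337 FPKM at P21 (1.77, SE 0.27, adjusted p = 0.000112), and Adamts2, which trims fibrillar procollagens, rose by 1.88 (SE 0.23, adjusted p = 1.88e-05). Loxl2, a lysyl oxidase-like enzyme, was 5.75 to 7.59 FPKM at P13 and 28.2 to 36.4 FPKM at P21 (2.07, SE 0.17, adjusted p = 3.35e-07). Lox, the lysyl oxidase, was 703, 484 and 402 FPKM at P21 and 78.7, 85.5 and 44.6 at P33, a fall by 2.92 (SE 0.24, adjusted p = 2.8e-06). In that later step 0 of the 11 rose and 1, Lox, fell, also after rescaling, against 2.87% and 7.17% of all genes. Loxl4, a related oxidase, was 27.1 to 32.6 FPKM over P8 and P10 and 93.4 to 125 FPKM at P13 (P13 minus P10 1.86, SE 0.28, adjusted p = 0.00033). At P33, 10 of the 11 were higher than in adipocytes and 0 lower, against 24.0% and 44.5% of all genes.

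Of 10 collagen receptors 7 were tested, and 4 rose from P13 to P21 and 0 fell (2 and 0 after rescaling). Of all genes, 36.0% rose and 7.04% fell. At P33, 4 were higher than in adipocytes, with Mrc2, the endocytic collagen receptor, at 17.1 to 23.8 against 1.03 to 1.76 FPKM, and 2 were lower (4 and 1 after rescaling), with Itga1, an integrin subunit for type IV collagen, at 0.99 to 1.38 against 5.15 to 6.21 FPKM. Of 14 basement membrane partners 11 were tested, and at P33 4 were higher and 5 lower than in adipocytes. Of all genes, 24.0% were higher and 44.5% lower in that comparison. Nid1 and Lamb1, a linker and a laminin chain, were lower, at -3.25 (SE 0.13, adjusted p = 9.01e-12) and -3.51 (SE 0.16, adjusted p = 3.45e-11), and Agrn, a proteoglycan, was higher by 2.57 (SE 0.14, adjusted p = 3.41e-10). Nid2, the second nidogen, was 655, 760 and 789 FPKM at P13, 97.5, 51.8 and 43.4 at P21 and 6.69, 10.5 and 5.49 at P33. It fell by 3.58 (SE 0.25, adjusted p = 5.34e-08) and by 2.88 (SE 0.25, adjusted p = 4.89e-06) while Col4a2 was called in neither comparison, also after rescaling. Of the 11 partners, 4 rose and 2 fell from P13 to P21 (0 and 2 after rescaling), against 36.0% and 7.04% of all genes. From P21 to P33, 1 rose and 1 fell (1 and 1), against 2.87% and 7.17% of all genes.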

How the data were processed

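Total RNA from 18 libraries was sequenced as 100% paired reads. Per the submitters' processing notes, the authors used STAR 2.4.2a and the mm10 build. What computed the FPKM is not given in the sources used here. The authors deposited FPKM per gene with 2 decimals, and a second deposited table of read counts with the alignment rate in percent. Read counts of single genes are not analysed here, and no counting error is given. No 2 libraries were identical (0 pairs), and 0 sample columns were unused. Coordinates come from GENCODE M21 (GRCm38), which held 98.95% of identifiers and all 37 genes.

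From these, log2(FPKM + 1) was fitted with limma 3.58.1 in R 4.3.3 (6 group means, 18 libraries, mean-variance trend, two-sided), over the 13815 genes that reached 1 FPKM in 3 or more libraries. The 6 comparisons were adjusted separately. Every collagen is accounted for, and pathway lists are given as counts with examples from the 3 called genes with the largest change in each direction, beside marker genes picked after their values were seen. Genes and lists were chosen with earlier results of these data known. Alternatives were median-of-ratios scaling, a pseudocount of 0.1, no filter, a filter at 5 FPKM, only the 2 groups compared, the replicate block and leaving out each library. Tested on simulated data for P13 against P8 (13815 genes), the fit recovered 80% of changes of log2 size 1 and 96% of size 2, with 5.38% of calls false. The 200 changed genes all had a mean log2(FPKM + 1) above 2, and the simulated noise was normal, independent and without shifts between libraries. These rates therefore do not cover changes in genes below that level, or shifts of whole libraries. Python 3.11.15 and matplotlib 3.10.9 drew the plots.

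The labels do not say whether a replicate number marks anything that libraries share. The deviations of same-numbered libraries from their group means correlated at -0.17 to 0.21. With 3 libraries in each group, these values cannot decide it.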

Additional observations from a re-analysis of the deposited data

How the results depend on the processing

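Of 60 collagen calls over the 6 comparisons, 43 held in every alternative that tested the gene: 2 of 5 for P10 against P8 (Col3a1 and Col5a3), 7 of 11 for P13 against P10, 4 of 4 for P13 against P8, 8 of 12 for P21 against P13, 0 of 6 for P33 against P21 and 22 of 22 for P33 against adipocytes. The 6 calls of P33 against P21 were all lost when only those 2 groups were fitted with limma, which left 0 collagens called, the lowest adjusted p at 0.0673 and 8 at an unadjusted p under 0.05, and they held in the other alternatives. In that fit 126 genes were called in place of 1388, on fewer residual degrees of freedom.

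For P10 against P8, where 1525 genes and 5 collagens were called, median-of-ratios scaling gave 622 genes and 10 collagens, no filter gave 985 and 3, only the 2 groups gave 351 and 2, and a pseudocount of 0.1 gave 3 collagens. Only the 2 groups gave 347 genes in place of 581 for P13 against P8, and the filter at 5 FPKM tested fewer genes and gave 6189 in place of 9466 for P33 against adipocytes. Median-of-ratios scaling turned Col5a2 for P21 against P13 from 0.05 (adjusted p = 0.827) to -0.39 (adjusted p = 0.0491). Scaling also moved the split of calls: P10 against P8 went from 262 higher and 1263 lower genes to 497 and 125, P13 against P10 from 2567 and 557 to 1125 and 1183, P21 against P13 from 4977 and 972 to 2212 and 2214, and P33 against adipocytes from 3315 and 6151 to 4188 and 4825. The causes were not tested. Of 1704 values of the collagens under an alternative, 61 changed sign and were called neither there nor as reported.

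Leaving out single libraries gave, for P10 against P8, 520 to 1493 genes and 3 to 4 collagens. The count was 640 genes without P8 replicate 2, 914 without P8 replicate 3, 520 without P10 replicate 1 and 794 without P10 replicate 2, and 3 collagens without P8 replicates 1 or 3 or P10 replicates 2 or 3. The ranges were 1938 (without P10 replicate 1) to 2830 genes and 8 to 11 collagens for P13 against P10, 339 (without P13 replicate 3; 381 without P8 replicate 1) to 509 genes and 4 to 4 collagens for P13 against P8, and 4898 to 5366 genes and 10 to 12 collagens for P21 against P13. They were 906 (without P21 replicate 2) to 1802 genes and 6 to 8 collagens for P33 against P21, and 8842 to 9549 genes and 22 to 22 collagens for P33 against adipocytes.

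By the labels, libraries share only a number. Some of them, but not all, correlated best with their own number. With the replicate block, 6, 11, 4, 13, 7 and 22 collagens and 1809, 3361, 661, 6105, 1546 and 9571 genes were called in the 6 comparisons in the order P10 against P8, P13 against P10, P13 against P8, P21 against P13, P33 against P21 and P33 against adipocytes. The block added Col1a1 (adjusted p = 0.0465) and Col1a2 (adjusted p = 0.034) and took away Col15a1 (adjusted p = 0.0594) for P10 against P8, and added Col16a1 for P21 against P13 (adjusted p = 0.0116) and Col5a2 for P33 against P21 (adjusted p = 0.0179). It changed no other collagen call.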
